A study of Homo sapiens with 6 samples.

Results

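The mitochondrial proteases LONP1, CLPP with its unfoldase CLPX, AFG3L2, SPG7 and YME1L1, and the mitochondrial chaperones HSPA9, TRAP1, HSPD1 and HSPE1, were followed in A549 cells transfected with TFAM or with the empty plasmid. These 10 genes were chosen by name from the 29845 genes listed with a read, and all 10 were among the 16555 genes kept for testing. None of the 10 genes passed the test for a difference between the groups. The fitted differences lay between a log2 fold change of -0.17 for CLPX and 0.21 for TRAP1, and for every gene the libraries of the groups overlapped.

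Proteins of the mitochondrial matrix are imported unfolded, folded by dedicated chaperones and removed by ATP-driven proteases. LONP1 is the soluble matrix protease that degrades oxidised proteins and also TFAM itself when TFAM is not bound to mitochondrial DNA, so the transfected protein is a known substrate of this set. When unfolded protein builds up in the matrix, cells can raise the transcription of the chaperones and proteases, a programme known as the mitochondrial unfolded protein response.

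A549 is a cell line grown from a human lung epithelial cancer. In the TFAM-OE group the cells received the pIRES-hrGFP-1a plasmid carrying FLAG-tagged TFAM, in the control group the same plasmid without an insert, both by Lipofectamine, and RNA was collected 48 h later. Polyadenylated RNA of 3 biological replicates per group was sequenced. Transfection was transient and how many cells took up the plasmid is not stated, so each value is a mean over transfected and untransfected cells. In such bulk RNA, fewer cells of a type and less RNA per cell cannot be told apart. The TFAM mRNA, which checks the labels, was at 76.1, 70.2 and 72.7 CPM in control replicates 1, 2 and 3 and at 71.9, 77.3 and 83.0 CPM in the libraries labelled TFAM-OE, where CPM is the read count scaled to library size by TMM. The groups overlapped (log2 fold change 0.08 ± 0.096 (SE), adjusted p 0.623, edgeR), so the label TFAM-OE is used here as a label and not as a measured rise in TFAM mRNA. The paper checked the overexpression at the protein level, by a western blot against the FLAG tag, which these RNA values do not measure.

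The deposited counts summed to between 26650854 and 37321956 reads per library. The 10 genes took between 0.233% and 0.260% of them, 0.239% ± 0.00479 (SD, n = 3) in the control and 0.246% ± 0.0133 (SD, n = 3) in TFAM-OE. Of 7 markers of the lung epithelial line, 6 had an FPKM over 1, and EPCAM lay between 0.14 and 0.47. Their summed FPKM ran from 4674 to 4785 in the control and from 4912 to 5158 in TFAM-OE. Among the blood cell markers CD14 lay between 0.91 and 1.00 in the control and between 1.77 and 2.51 in TFAM-OE, while CD3E and HBB were not listed and PTPRC had no FPKM value. The part of the cells behind CD14 in the results was not tested. Of the endothelial and fibroblast markers, 5 of 6 had an FPKM value and 0 exceeded 1.

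Ranked by FPKM, which divides by transcript length and so lets genes be compared, the chaperones stood above the proteases. HSPD1, the chaperonin that folds matrix proteins in a closed chamber, was at 302 ± 21.3 (SD, n = 6 libraries), rank 170 among the tested genes. HSPE1, the co-chaperonin that forms the lid of that chamber, followed at 227 ± 19.6. HSPA9, the Hsp70 of the matrix that also pulls proteins through the import pore, was at 107 ± 12.4. TRAP1, the Hsp90 of mitochondria, was at 72.6 ± 8.26. By FPKM, each of these genes lay above the next one in this order in all 6 libraries without overlap of their ranges. By CPM in the control, HSPA9 was at a mean of 429 and HSPE1 at 260, the reverse of their FPKM order. The order within the chaperones thus depends on the lengths behind FPKM, which are not given.

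Below them came CLPP, the peptidase ring of the ClpXP protease, at 47.7 ± 3.86 FPKM and LONP1 at 41.3 ± 2.22. By FPKM, CLPP was above LONP1 in all 6 libraries, although the ranges over libraries overlapped. By CPM, which is not divided by length, LONP1 was at a mean of 165 in the control and CLPP at 66.4. Their principal transcripts have 3092 and 2410 nt. Dividing by these lengths would not place CLPP above LONP1, so the order by FPKM rests on other lengths. AFG3L2 and SPG7, the subunits of the m-AAA protease of the inner membrane that faces the matrix, were at 17.0 ± 1.67 and 14.5 ± 1.00. YME1L1, the i-AAA protease that faces the intermembrane space, lay between them at 15.7 ± 2.56. The FPKM order of these last 3 does not hold beyond their spread, since AFG3L2 was above YME1L1 in 5 of 6 libraries and YME1L1 above SPG7 in 4 of 6. By CPM in the control, YME1L1 was at a mean of 135, AFG3L2 at 62.0 and SPG7 at 77.2. Their principal transcripts have 4191, 3160 and 3076 nt. Dividing by these would place YME1L1 above AFG3L2 and SPG7, so its place by FPKM also rests on other lengths. CLPX, the unfoldase that feeds CLPP, was lowest at 9.31 ± 1.50, rank 4924, and its range overlapped with that of no other gene.

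**Figure D1:**
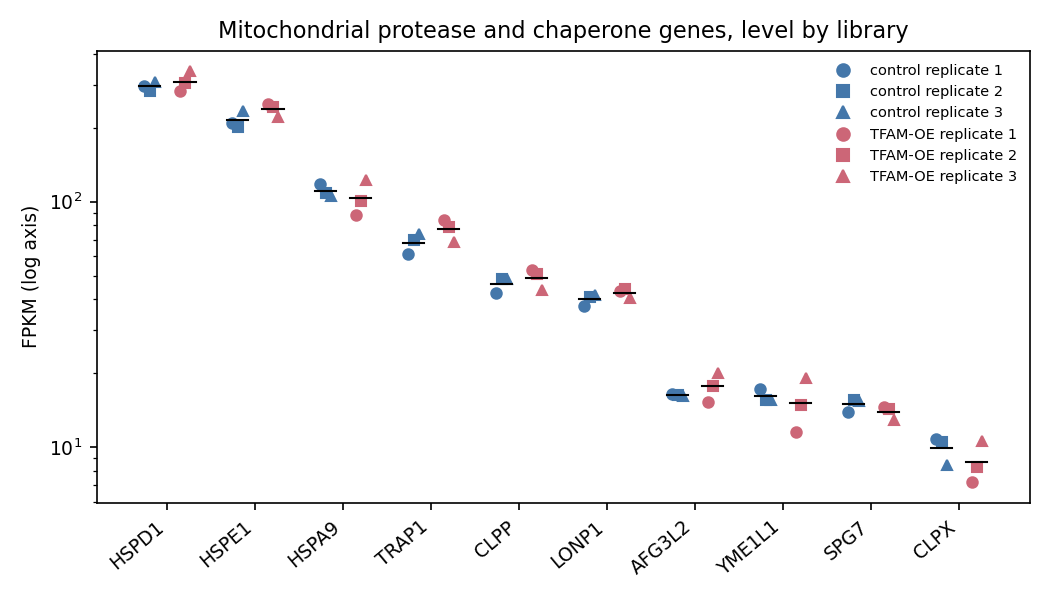
FPKM (log axis) of the 10 mitochondrial protease and chaperone genes in each of the 6 libraries, ordered by mean level, with control in blue, TFAM-OE in red, a symbol for each replicate and a short line at each group mean. The points of the groups overlap for every gene, from HSPD1 with a mean of 302 to CLPX with a mean of 9.31.

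Promoters were searched for words of the factors known to act on such genes, with the RefSeq sequence of GRCh38.p14 from 250 bases before to 50 after a start site. Windows were matched for 8 of the 10 genes, 11 windows in all, and CLPP and YME1L1 were without one. The words, read on both strands, were the heat shock words GAANNTTC and TTCNNGAA, TTGCATCA for the C/EBP and ATF family and GCATGCGC for NRF1, a factor of nuclear genes for mitochondrial proteins. Of the 35116 promoter windows of that table, 6.77% held GAANNTTC, 7.74% TTCNNGAA, 0.866% TTGCATCA and 3.05% GCATGCGC. Matches were found for 3 of the 8 genes and are shown with the matching letters in capitals, because heat shock factors and NRF1 are known to bind such words. All are written 5′ to 3′ on the minus strand, on which these 3 genes lie.
HSPD1, chr2:197500061-197500090: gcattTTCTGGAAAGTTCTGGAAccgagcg
HSPA9, chr5:138575387-138575416: tggttggaggtTTCCAGAAgcgctgccgcc
LONP1, chr19:5720633-5720662: ctgaagccctGCGCATGCGCatcaatgagt
LONP1, chr19:5720562-5720591: ctgaatcttgaGCATGCGCagacgaatccc
LONP1, chr19:5720459-5720488: ctagagtctgaGCATGCGCatgttgtccgc
In HSPD1 the capitals are 3 matches of the heat shock words, each overlapping the next, from position -245 to -228 when the start base is position 0. This run lies between the start sites of HSPD1 and HSPE1, which are divergently transcribed and 539 bases apart. In HSPA9 there is 1 match of a heat shock word, at -4. The LONP1 matches belong to the window of a second, upstream start, at 5720452, where GCATGCGC was found 4 times, the first 2 overlapping on opposite strands. The window of the principal LONP1 start, at 5720146, and those of CLPX, AFG3L2, SPG7, HSPE1 and TRAP1 held none of the 4 words. A match describes letters in a window and does not show that a factor binds there.

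Across the tested genes 8.29% were called at an adjusted p below 0.05 (edgeR quasi-likelihood test, Benjamini-Hochberg), 4.81% lower and 3.48% higher in TFAM-OE, and 2.51% were also at least 2-fold apart. Of the 10 mitochondrial protease and chaperone genes 0 were called, 0 higher and 0 lower. The count at an unadjusted p below 0.05 was also 0, beside 4208 of the 16555 tested genes (edgeR). DESeq2, limma-voom, limma-trend on FPKM and edgeR's exact test each called 0. In 31.7% of the tested genes the CPM of the groups did not overlap, against 0 of these 10. The median log2 fold change of the 10 was 0.10, with 6 above and 4 below 0, beside -0.01 over all tested genes and 0.05 over the 4730 tested genes with a mean FPKM of at least 10. Their median size of change regardless of sign was 0.11, beside 0.21 and 0.16 in those sets.

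LONP1 (ENSG00000196365, chromosome 19, 5691834 to 5720572 in GRCh38, minus strand) was at 151, 169 and 175 CPM in control replicates 1, 2 and 3 and at 189, 186 and 160 in TFAM-OE. TFAM-OE replicates 1 and 2 were above every control and replicate 3 was among the controls. The fold change was 1.08 with a 95% interval of 0.920 to 1.27 (adjusted p 0.540, edgeR). A difference of up to 1.27-fold in the mRNA of this TFAM-degrading protease lies inside that interval, and a 2-fold one lies outside it.

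CLPP (ENSG00000125656, chromosome 19, 6361531 to 6370242, plus strand) stood at 59.2, 69.5 and 70.5 CPM in the control and at 79.9, 74.6 and 60.05 in TFAM-OE, a fold change of 1.08 (0.886 to 1.31, adjusted p 0.637, edgeR). CLPX (ENSG00000166855, chromosome 15, 65148219 to 65185342, minus strand) stood at 57.6, 57.9 and 47.7 CPM and at 42.2, 46.96 and 55.9 in TFAM-OE, a fold change of 0.889 (0.727 to 1.09, adjusted p 0.446, edgeR). The peptidase and its unfoldase were thus ordered in opposite ways within TFAM-OE, with replicate 1 highest for CLPP and lowest for CLPX. Both sets of control values overlapped with those of TFAM-OE.

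Of the membrane proteases, AFG3L2 (ENSG00000141385, chromosome 18, 12328944 to 12377227, minus strand) was at 60.5, 62.6 and 63.0 CPM in the control, with a spread of 2.17% of the mean. In TFAM-OE it was at 62.0, 69.5 and 73.0 CPM, 2 of 3 libraries above every control, and the fold change was 1.10 (0.945 to 1.28, adjusted p 0.414, edgeR). SPG7 (ENSG00000197912, chromosome 16, 89490719 to 89557766, plus strand), its partner, was at 69.6, 80.4 and 81.5 CPM and at 80.2, 75.7 and 63.6, a fold change of 0.948 (0.793 to 1.13, adjusted p 0.720, edgeR). For SPG7 the lowest library was TFAM-OE replicate 3 and for AFG3L2 the same library was the highest. YME1L1 (ENSG00000136758, chromosome 10, 27110111 to 27155266, minus strand) was at 140, 131 and 134 CPM in the control and at 103, 127 and 155 in TFAM-OE. The TFAM-OE libraries of YME1L1 lay on both sides of the controls, and their spread was 20.1% of the mean against 3.52% in the control. Its fold change was 0.951 (0.771 to 1.17, adjusted p 0.781, edgeR).

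HSPA9 (ENSG00000113013, chromosome 5, 138553756 to 138575675, minus strand) was at 444, 425 and 418 CPM in the control and at 366, 401 and 459 in TFAM-OE, again on both sides of the controls, with a fold change of 0.952 (0.809 to 1.12, adjusted p 0.718, edgeR). TRAP1 (ENSG00000126602, chromosome 16, 3651639 to 3717553, minus strand) had the highest fold change of the 10, 1.16 (0.939 to 1.42, adjusted p 0.362, edgeR). Its values were 204, 241 and 259 CPM in the control and 310, 279 and 226 in TFAM-OE. Replicates 1 and 2 of TFAM-OE were above every control, and replicate 3 was below control replicates 2 and 3.

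HSPD1 (ENSG00000144381, chromosome 2, 197486584 to 197516737, minus strand) was at 866, 855 and 946 CPM in the control and at 905, 938 and 982 in TFAM-OE, a fold change of 1.06 (0.914 to 1.23, adjusted p 0.628, edgeR). HSPE1 (ENSG00000115541, chromosome 2, 197500140 to 197503449, plus strand) was at 244, 245 and 290 CPM and at 322, 301 and 255, a fold change of 1.13 (0.942 to 1.35, adjusted p 0.383, edgeR). For HSPD1 only TFAM-OE replicate 3 exceeded every control, and for HSPE1 it was replicates 1 and 2 that did so. In GENCODE version 44 the HSPD1 gene model spans HSPE1 on the opposite strand. A readthrough gene, HSPE1-MOB4, that shares sequence with HSPE1 had 694 to 1102 reads. Since the use of strand in counting is not given, the division of reads between these genes is uncertain. The listed processed pseudogenes of HSPD1 and HSPE1 had at most 2 reads in a library. The paper counted uniquely mapped reads, so these low counts do not show how many reads match both a gene and its copies.

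**Figure D2:**
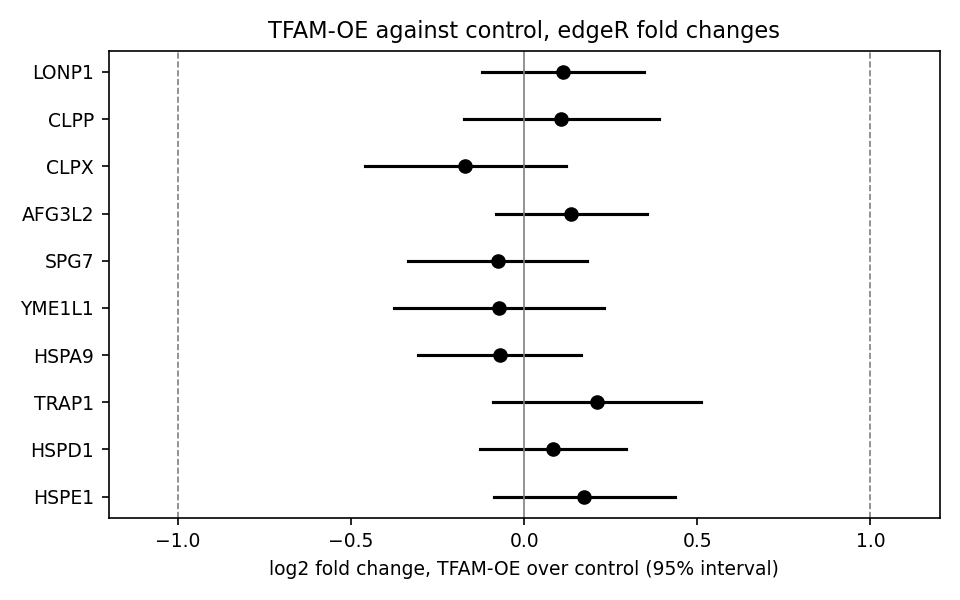
Log2 fold change of TFAM-OE over control for the 10 genes, with points for the edgeR estimate and bars for the 95% interval (n = 3 per group), a solid line at 0 and dashed lines at 2-fold in each direction. All 10 bars cross 0, the estimates lie between -0.17 for CLPX and 0.21 for TRAP1, and no bar reaches a 2-fold line.

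Ratios within a library do not depend on scaling, so partner genes were also set against each other by FPKM, with exact permutation tests of 3 against 3 that cannot give a two-sided p below 0.1. HSPD1 to HSPE1 was 1.42, 1.40 and 1.31 in the control and 1.13, 1.25 and 1.54 in TFAM-OE (exact p = 0.6). CLPP to CLPX was 3.95, 4.62 and 5.69 in the control and 7.29, 6.11 and 4.14 in TFAM-OE (exact p = 0.4). In both ratios TFAM-OE replicates 1 and 2 were on one side of the controls and replicate 3 was not.
The ratio of AFG3L2 to SPG7, the m-AAA subunits, was 1.18, 1.05 and 1.05 in the control and 1.05, 1.24 and 1.55 in TFAM-OE (exact p = 0.4). LONP1 to YME1L1 was 2.19, 2.63 and 2.66 in the control and 3.73, 2.98 and 2.10 in TFAM-OE (exact p = 0.5). All 4 ratios overlapped between the groups, their p adjusted over the 4 was 0.6, and the mean log2 differences, TFAM-OE minus control, were -0.09, 0.27, 0.21 and 0.20 in the order given.

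**Figure D3:**
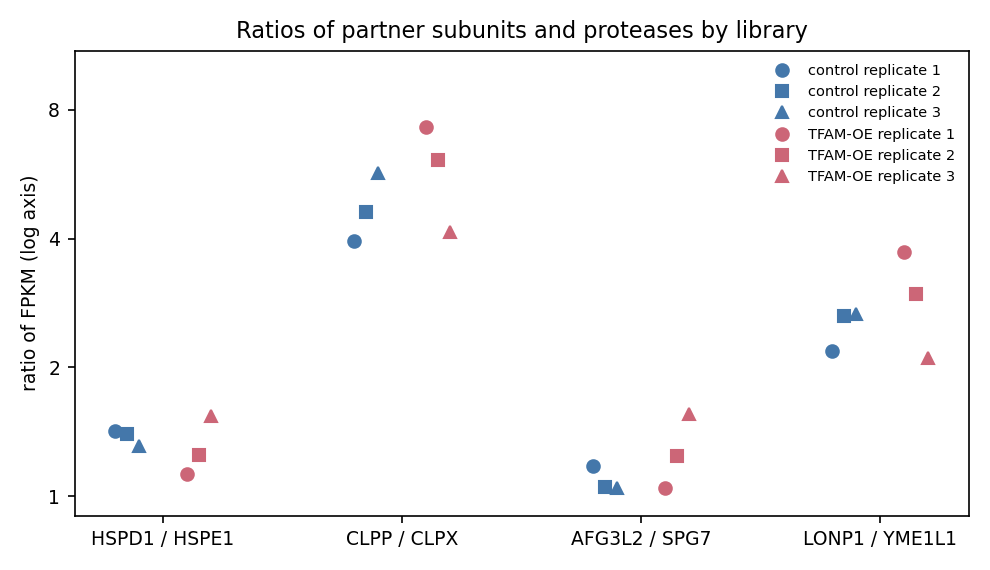
Ratio of FPKM values (log axis) within each library for HSPD1 to HSPE1, CLPP to CLPX, AFG3L2 to SPG7 and LONP1 to YME1L1, with control in blue, TFAM-OE in red and a symbol for each replicate. The TFAM-OE points are wider apart than the controls in all 4 ratios, from 7.29 to 4.14 for CLPP to CLPX.

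Within TFAM-OE, replicate 2 lay between replicates 1 and 3 in 10 of the 10 genes, and in 65.0% of all tested genes. From replicate 1 to replicate 3 the log2 CPM differed by 0.58 for YME1L1, 0.41 for CLPX, 0.33 for HSPA9, 0.24 for AFG3L2 and 0.12 for HSPD1. The differences had the other sign for TRAP1 (-0.46), CLPP (-0.41), HSPE1 (-0.34), SPG7 (-0.34) and LONP1 (-0.24). Proteases and chaperones were found on both sides. The GC content of the transcript moved with this split. All 4 genes above the median GC content of the tested genes (49.3%), which are LONP1, SPG7, TRAP1 and CLPP at 55.7% to 62.6%, were lower in replicate 3. Of the 6 below it, at 39.3% to 49.1%, 5 were higher in replicate 3. HSPE1 was the exception, and its transcript of 557 nt was the shortest of the 10, where CLPX, HSPA9 and YME1L1 had 4695, 4404 and 4191 nt. Over 16342 genes, which are not independent replicates, the difference of replicate 3 minus replicate 1 had a Pearson r of -0.33 with GC content and 0.40 with log2 transcript length. The TFAM-OE mean minus the control mean had an r of 0.20 with GC content and -0.09 with log2 length. Among the controls, r with GC content was 0.27 for replicate 2 minus 1, 0.26 for 3 minus 1 and 0.009 for 3 minus 2. The part of GC content and length in the result of any of the 10 genes was not tested, but with an offset for GC content in the fit, an alternative chosen after seeing the data, 0 of the 10 were called. LONP1 was then at a log2 fold change of -0.01, TRAP1 at 0.14 and HSPE1 at 0.31 (adjusted p 0.212, edgeR).

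**Figure D4:**
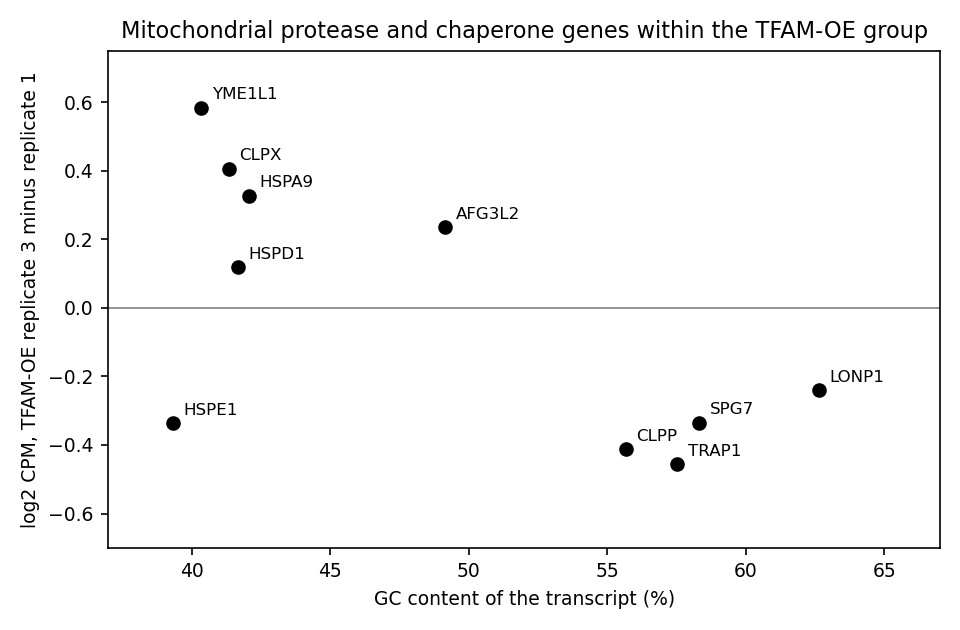
GC content of the transcript (%) against the difference in log2 CPM between TFAM-OE replicates 3 and 1 for each of the 10 genes, with 1 point per gene. LONP1, SPG7, TRAP1 and CLPP, at 55.7% GC or more, lie below 0, and the other genes lie above 0 except HSPE1 at -0.34.

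Without TFAM-OE replicate 3, 3 of the 10 genes were at an unadjusted p below 0.05 by edgeR and 0 after adjustment, while AFG3L2, SPG7 and HSPD1 had larger adjusted p-values than with all 6 libraries (0.541, 0.905 and 0.702, edgeR). The 3 were TRAP1 at a log2 fold change of 0.33 (adjusted p 0.0514, edgeR), HSPE1 at 0.27 (adjusted p 0.0820, edgeR) and CLPX at -0.28 (adjusted p 0.103, edgeR). The number of all genes called after adjustment also moved with that library, to 1786 lower and 1428 higher from 796 and 576. The share of all genes below an unadjusted p of 0.05 without that library is not given here. The count of 3 is therefore not read as a result about these genes.

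Likeness of pattern was measured as the root-mean-square difference in log2 CPM over the 6 libraries, after each gene's own mean was taken off, among 13190 genes with at least 50 reads on average. The genes closest to LONP1 were PA2G4 (0.020), PSMB3 (0.020) and APOBEC3C (0.022). Its closest companion among the 10 was CLPP at 0.053, rank 264, and CLPX was the farthest at 0.28, rank 9042. The genes closest to HSPD1 were WDR82 (0.018), MSRB3 (0.028) and RAI1 (0.030). AFG3L2 came at rank 192 from HSPD1, while HSPE1, the co-chaperonin, came at rank 3694. Among the 10, the closest pairs were LONP1 with CLPP, AFG3L2 with HSPD1 (0.060) and CLPP with TRAP1 (0.062), and HSPD1 with HSPE1 was number 17 of the pairs at 0.15.

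The other genes of mitochondrial protein quality control were taken from 6 lists with 72 genes, of which 70 were tested and DNAJC15 and STAR were not. Over these lists 2 genes were called lower and 0 higher by edgeR, against 4.81% and 3.48% of all genes. At an unadjusted p below 0.05 there were 7 lower and 4 higher of the 70 tested. Over all 16555 tested genes, 4208 were below that unadjusted p in either direction. DESeq2 called 4 lower. The median log2 fold change of the 70 was 0.04.

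Both called genes were among the 10 stress response regulators, whose median log2 fold change was -0.23. DDIT3, also called CHOP, a transcription factor induced in the integrated stress response, was at 69.3, 36.5 and 26.7 CPM in the control and at 11.5, 9.66 and 7.20 in TFAM-OE. Every TFAM-OE library was below every control for DDIT3, and it fell by a log2 of 2.22 ± 0.32 (SE, adjusted p 0.0037, edgeR). EIF2AK2, the kinase known as PKR that is activated by double-stranded RNA and induced by interferon, was at 194, 221 and 195 CPM and at 85.9, 101 and 106 in TFAM-OE. It fell by 1.06 ± 0.11 on the log2 scale (SE, adjusted p 5.0e-04, edgeR), and both genes were called in all 18 alternatives. EIF2AK2 is better known from antiviral defence than from the mitochondrial response that gave the list its name.

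Of the transcription factors in that list, DDIT3 passed the test and ATF4, ATF5, HSF1 and CEBPB did not. ATF4, which drives the integrated stress response, was at 519, 494 and 501 CPM in the control and at 487, 448 and 401 in TFAM-OE, without overlap, and its log2 fold change was -0.18 (adjusted p 0.292, edgeR). ATF5, a factor that responds to failing mitochondrial import, was at -0.23 (adjusted p 0.318, edgeR) and HSF1, the heat shock factor, at -0.23 (adjusted p 0.339, edgeR). The groups overlapped for both ATF5 and HSF1, with TFAM-OE replicate 3 the lowest library for each. CEBPB, a C/EBP factor named after its values were seen, was at 513, 532 and 510 CPM in the control and at 450, 416 and 368 in TFAM-OE, without overlap. Its log2 fold change was -0.33 (adjusted p 0.0708, edgeR), and over the alternatives the adjusted p ran from 0.0076 to 0.2496.

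Among 14 processing and other peptidases 0 were called (unadjusted p below 0.05 for 1 lower and 2 higher), with a median log2 fold change of 0.08. OMA1, the stress-activated peptidase of the inner membrane, was at 8.52, 8.41 and 7.56 CPM in the control and at 8.35, 8.56 and 8.53 in TFAM-OE (0.06, adjusted p 0.825, edgeR). Of 8 protease partners and scaffolds 0 were called, at unadjusted p 1 lower and 1 higher, with a median of 0.06. For the HSPA9 co-chaperones and import motor, 0 of 13 tested were called and 1 was lower at unadjusted p. That list holds DNAJA3, the J-protein partner of HSPA9, at 181, 197 and 195 CPM in the control and 174, 165 and 139 in TFAM-OE, which did not overlap but did not pass the test (log2 fold change -0.26, adjusted p 0.152, edgeR). GRPEL1, the nucleotide exchange factor of HSPA9, was at -0.07 (adjusted p 0.674, edgeR).

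Of the protease substrates 0 of 10 tested were called by edgeR, also 0 at an unadjusted p below 0.05, and the substrate mRNAs had a median log2 fold change of 0.07. OPA1, the inner membrane fusion protein cut by OMA1 and YME1L1, was at 30.6, 29.2 and 27.4 CPM in the control and at 20.8, 30.3 and 42.9 in TFAM-OE (0.11, adjusted p 0.797, edgeR). PRELID1, a lipid carrier degraded by YME1L1, was at 353, 440 and 447 CPM and at 492, 451 and 337 (0.05, adjusted p 0.882, edgeR). As for YME1L1, the TFAM-OE values of both lay on both sides of the controls, in opposite orders. Of the 15 cytosolic and ER counterparts, such as the cytosolic Hsp70 and Hsp90 genes and the CCT chaperonin subunits, 0 were called and 1 was lower at unadjusted p, with a median of 0.04.

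**Figure D5:**
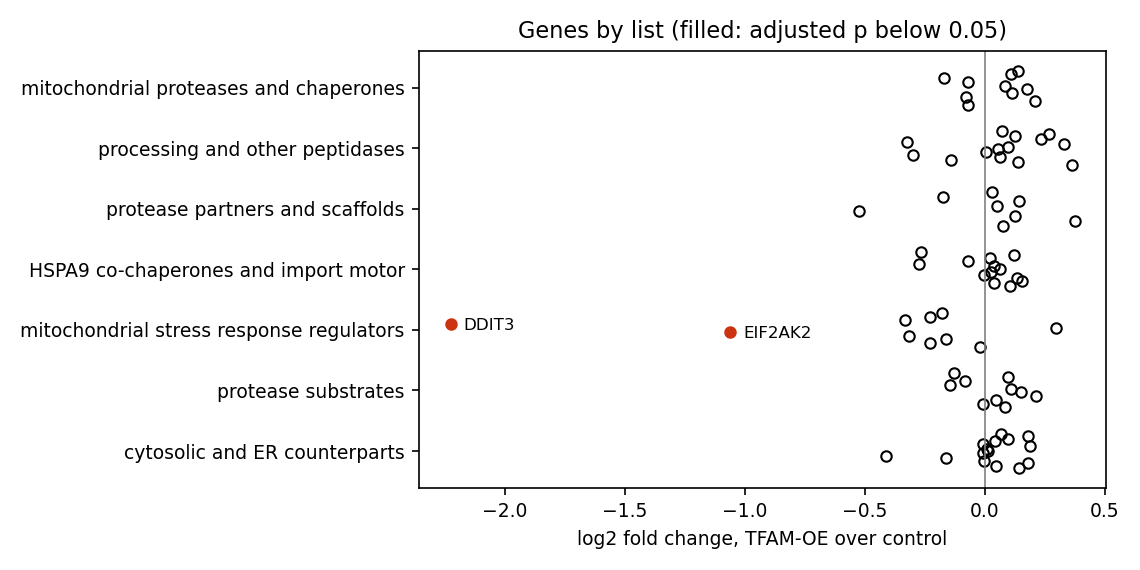
Log2 fold change of TFAM-OE over control for the 10 mitochondrial protease and chaperone genes and for the tested genes of the 6 partner lists, with 1 point per gene, open where the adjusted p was 0.05 or more and filled in red where it was below. DDIT3 at -2.22 and EIF2AK2 at -1.06 are the filled points and stand apart from the others, which lie between -0.52 and 0.37.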

How the data were processed

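RNA of A549 cells, 3 control and 3 TFAM-OE libraries, was sequenced. The authors trimmed the reads, kept those of 16 nt or more and mapped them with TopHat2 (GRCh38, up to 4 mismatches). The submitters' processing notes also name bcl2fastq and edgeR. The authors deposited, for each library and gene, a raw read count and an FPKM value. Which program and annotation gave the counts, and whether strand was used, is not given in the sources used here. Counting error is small beside the spread of the 3 cultures per group, which sets the precision.

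Counts were tested with edgeR (4.0.16) in R (4.3.3): filterByExpr, TMM scaling and a two-sided quasi-likelihood test with Benjamini-Hochberg adjustment over all 16555 genes, called at an adjusted p below 0.05. The script was tested on simulated data. CPM is TMM-scaled, and FPKM was used as deposited for levels and ratios. Log2 values are TFAM-OE over control. Coordinates, GC content and transcript lengths come from GENCODE version 44 (98.7% of tested genes had one), gene by gene for the principal transcript. Replicate libraries differed by more than sampling noise, and replicate numbers were not used as pairs.

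All 10 genes were named. Of each partner list, those called were named, by smallest p and up to 4 per direction, and always GRPEL1, OMA1, DNAJA3, TFAM, OPA1, PRELID1, ATF4, ATF5, DDIT3 and HSF1. Named by likeness were the 3 genes nearest to LONP1 and to HSPD1. The genes and lists were chosen with earlier results of these data known.

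Alternatives were DESeq2 (1.42.0), limma (3.58.1) as voom and as trend on log2(FPKM + 0.1 or 1), the edgeR exact test, other scalings and filters, the replicate block and each library left out. The GC-content offset was added after the data were seen. Figures were drawn with matplotlib (3.10.9).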

Additional observations from a re-analysis of the deposited data

How the results depend on the processing

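In all 18 alternatives 0 of the 10 genes were called, and of the 378 values for 21 named genes 365 kept their direction and side of the threshold. With partner genes at 2 lower and 0 higher, 4 were lower by library size alone, with a mean FPKM of at least 1, with DESeq2 and with the exact test, 5 with limma-trend at either pseudocount, and 5 with the GC-content offset. One partner gene was called higher (1) with every gene with a read and with the GC-content offset. Leaving out 1 library gave 2 to 4 lower and 0 to 1 higher, the upper values without TFAM-OE replicate 3. Over all genes the calls went from 796 lower and 576 higher to 1485 and 1034 with every gene with a read, 1236 and 980 with the exact test, and 932 higher with DESeq2. Leaving out 1 library gave 240 to 1786 lower and 66 to 1428 higher. The highest came without TFAM-OE replicate 3, and the low counts without control replicate 1 (252 and 90), control replicate 2 (240 and 66) or TFAM-OE replicate 2 (262 and 89). With the replicate block 285 were lower and 74 higher. Libraries of the same number had deviations correlated at -0.20, -0.0034 and -0.25, and 0 of 3 control libraries were closest to their own number. These values show no pairing by number, but 3 libraries per group cannot exclude a paired design.

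Directions turned for 6 genes and 1 ratio, none of them called. With the GC-content offset the log2 fold change was -0.0096 for LONP1, 0.030 for YME1L1, 0.012 for HSPA9 and -0.020 for PRELID1. With 1 library left out, YME1L1 ran from -0.22 to 0.064 and HSPA9 from -0.16 to 0.0047, both highest without TFAM-OE replicate 1. SPG7 ran from -0.15 to 0.021, highest without TFAM-OE replicate 3, and OPA1 from -0.18 to 0.33, lowest without TFAM-OE replicate 3. PRELID1 ran from -0.068 to 0.20, below 0 without TFAM-OE replicate 1 and, at -0.05, without control replicate 1. The log2 ratio of HSPD1 to HSPE1 ran from -0.21 to 0.012, above 0 without TFAM-OE replicate 1. DNAJA3 passed the test with limma-trend at -0.29 and HSF1 with the GC-content offset at -0.37. The cause of these changes was not tested. With 3 libraries per group the 95% intervals set the precision, which for TRAP1 run from 0.939-fold to 1.42-fold.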
